A study of Mus musculus with 19 samples.

Results

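Meiotic break hotspots were compared between male F1 hybrids that carry the same SPRT Prdm9 allele but differ in the allele from the other parent. The hotspots are the autosomal DMC1 sites of the genotypes B6/SPRT and CAST/SPRT, 18522 and 9592 of them, and together they make up 28114 of the 71181 autosomal hotspots (39.5%) in the 5 DMC1 tables of the series. Hotspots of both tables were paired where their centers lay within 500 bp of each other and each was the nearest to the other. A hotspot of B6/SPRT with such a partner is called kept, and a hotspot without it not called.

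Both genotypes are B6SPRTF1 hybrids, from B6 (C57BL/6J) females and males of SPRET/EiJ, a strain of the Algerian mouse Mus spretus that is written SPRT here. In B6/SPRT the mother gave the wild-type B6 allele. In CAST/SPRT she was heterozygous for Prdm9tm1.1Kpgn, an engineered allele on B6 whose DNA-binding array is that of Mus musculus castaneus, and the sons analysed carried that CAST array over the SPRT allele. The rest of the F1 genome, B6 from the mother and SPRT from the father, is shared. A further B6SPRTF1 hybrid, Hum/SPRT, is used as a comparison. Its mother was heterozygous for an engineered humanized allele, the human PRDM9 B allele, and its father was SPRET/EiJ. DMC1 was immunoprecipitated from whole adult testis, with 1 library for each genotype, and the number of mice behind a library is not given in the sources used here.

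PRDM9 is a zinc-finger protein that binds a DNA motif in meiotic cells, places the histone mark H3K4me3 there and so sets where double-strand breaks form. DMC1, a recombinase of meiotic cells, binds the single-stranded ends of resected breaks, and single-stranded DNA sequencing (SSDS) of DMC1-bound DNA maps these breaks. Motifs of an allele tend to erode on the genome in which that allele evolved, since the cut chromosome is repaired from the uncut one, so in a hybrid an allele often cuts the chromosome of the other parent. DMC1 signal depends both on how often a site is cut and on how long DMC1 stays on the break, and these cannot be told apart here.

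The DMC1 signal of a hotspot, its heat, is the value of the authors' caller in arbitrary units, and its scaling to sequencing depth is not stated. Heat summed to 1827740 over the autosomal hotspots of B6/SPRT and to 340939 over those of CAST/SPRT, and the lowest heat listed was 7.50 in both, so changes between the libraries are read only from the rank or the share of the library. Heats of a hotspot in both libraries are printed side by side as listed, and their difference is not read as a change. The B6 fraction is the percentage of DMC1 reads at a hotspot that came from the B6 chromosome. It was listed for 74.1% of the hotspots of B6/SPRT and 75.5% of those of CAST/SPRT, without the number of reads. A hotspot with a B6 fraction of 25 to 75% is called matched, one above 75% is cut mainly on the B6 chromosome, and one under 25% mainly on the SPRT chromosome. As each genotype has a single library, no replicate error can be given and no test was made. Wilson 95% intervals cover counting error only, and ranges over the 19 autosomes show how even a library is.

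Few hotspot centers lay near a gene start, where RefSeq sequence was at hand. The windows searched ran from 250 bases before to 50 after a RefSeq start in GRCm38.p6, and they held the centers of 9 of 5201 kept SPRT hotspots, 6 of 4046 SPRT hotspots not called in CAST/SPRT, 6 of 4122 B6 hotspots and 10 of 3470 CAST hotspots. For each of these 4 sets the strongest such hotspot with a B6 fraction is printed below, 5′ to 3′ on the strand of the gene, so that the DNA under each kind of center can be seen. Capitals mark the 51 bases centered on the hotspot. They show the B6 reference sequence and not that of the SPRT chromosome, and no motif was searched in them.
Kept SPRT hotspot (Gm32499, chr15:32199224-32199523, plus strand): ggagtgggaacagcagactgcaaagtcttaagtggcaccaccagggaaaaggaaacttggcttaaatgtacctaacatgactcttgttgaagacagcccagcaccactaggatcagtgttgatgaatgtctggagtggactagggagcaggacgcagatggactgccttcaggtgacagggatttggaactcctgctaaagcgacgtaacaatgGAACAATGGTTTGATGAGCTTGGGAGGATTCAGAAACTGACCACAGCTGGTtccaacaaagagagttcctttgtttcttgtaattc
SPRT hotspot not called in CAST/SPRT (Gm36905, chr16:91995971-91996270, minus strand): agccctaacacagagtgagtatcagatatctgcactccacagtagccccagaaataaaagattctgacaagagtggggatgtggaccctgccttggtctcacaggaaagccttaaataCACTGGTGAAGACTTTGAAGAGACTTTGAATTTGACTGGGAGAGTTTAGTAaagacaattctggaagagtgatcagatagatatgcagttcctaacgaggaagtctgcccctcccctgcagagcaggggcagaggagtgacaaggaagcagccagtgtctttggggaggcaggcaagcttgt
B6 hotspot (Gm34628, chr4:56478347-56478646, minus strand): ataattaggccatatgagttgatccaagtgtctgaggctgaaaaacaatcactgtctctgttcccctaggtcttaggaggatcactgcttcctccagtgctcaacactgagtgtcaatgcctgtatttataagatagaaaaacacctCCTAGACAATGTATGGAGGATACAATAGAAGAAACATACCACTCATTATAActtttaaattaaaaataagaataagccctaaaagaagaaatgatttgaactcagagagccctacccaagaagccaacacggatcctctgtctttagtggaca
CAST hotspot (Nlrp3, chr11:59542436-59542735, plus strand): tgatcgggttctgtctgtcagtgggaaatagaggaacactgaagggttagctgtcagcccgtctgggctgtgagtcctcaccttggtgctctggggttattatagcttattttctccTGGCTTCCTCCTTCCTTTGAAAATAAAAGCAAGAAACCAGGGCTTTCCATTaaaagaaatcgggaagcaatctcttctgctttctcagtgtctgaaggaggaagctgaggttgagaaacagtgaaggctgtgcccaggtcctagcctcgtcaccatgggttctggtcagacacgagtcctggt

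The kept example near Gm32499 had a heat of 321 in B6/SPRT with 99.8% of reads from the B6 chromosome, and a heat of 65.3 in CAST/SPRT with 97.0%. The example near Gm36905 had a heat of 94.6 and a B6 fraction of 88.3% in B6/SPRT, and no CAST/SPRT hotspot lay within 500 bp. The B6 hotspot near Gm34628 had a heat of 483 and was cut mainly on the SPRT chromosome, with 12.7% of reads from B6. The CAST hotspot lay 108 bases before the start of Nlrp3, a sensor of the inflammasome, and had a heat of 30.5 with a B6 fraction of 75.5%. These 4 hotspots were chosen after their values were seen, and they are illustrations of the 4 sets only.

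The SPRT allele kept its strong hotspots when the B6 allele was replaced by CAST, and the hotspots that dropped out of the list were mostly weak. Of the 9247 SPRT hotspots of B6/SPRT, 5201 had a partner in CAST/SPRT (56.2%, Wilson interval 55.2 to 57.3%), against 29.3% of the B6/SPRT hotspots of any allele. The kept share ran from 48.0% on chromosome 19 to 59.9% on chromosome 14. Kept hotspots held 82.7% of the SPRT heat of B6/SPRT. In the other direction, 5113 of the 5123 SPRT hotspots of CAST/SPRT had a partner in B6/SPRT (99.8%), against 56.5% of the CAST/SPRT hotspots of any allele. The CAST/SPRT list of SPRT hotspots was therefore nearly a subset of the B6/SPRT list.

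The label of a hotspot is not independent of this sharing. The authors attributed hotspots to alleles by comparison with other mice, and whether the hybrids compared here were among them is not stated. Of the SPRT hotspots of B6/SPRT, 99.6% were also called in Hum/SPRT, the hybrid with a humanized Prdm9 allele, and 7 were called in neither of the other hybrids. Of the 5103 B6/SPRT hotspots with no allele assigned, 91.9% were in neither, and 3.55% had a partner in CAST/SPRT. The B6/SPRT table also held 4122 B6 hotspots and 50 labelled KO, a label that is not explained in the sources used here, and the CAST/SPRT table held 5123 SPRT, 3470 CAST, 958 unassigned and 41 KO hotspots. The shares kept are therefore described within the SPRT hotspots, by heat and by B6 fraction, and not between alleles.

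Partners lay close together. The median distance between paired centers was 58 bp, and 4987 of 5201 pairs lay within 250 bp. The widest pair, on chromosome 12 at position 84107716, was 485 bp apart with heats of 136 in B6/SPRT and 21.6 in CAST/SPRT. Just outside the limit, hotspots on chromosome 1 at positions 124308531 and 124309033 were 502 bp apart, with heats of 126 and 28.5. No SPRT hotspot that was not called had any CAST/SPRT hotspot within 500 bp, and 18 had one past 500 and up to 1000 bp. Of the partners, 5025 were attributed to SPRT and 176 to no allele, and none to CAST.

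Median heat in B6/SPRT was 183 for kept hotspots (quartiles 123 and 272) and 50.2 for those not called (quartiles 34.6 and 71.1). In deciles of heat, the kept share rose from 2.38% in decile 1 and 5.41% in decile 2 to 26.2% in decile 4, 49.8% in decile 5, where heat ran from 79.7 to 104, 77.8% in decile 6 and 93.1% in decile 7. It was 98.4%, 99.7% and 100% in deciles 8, 9 and 10. The 956 strongest SPRT hotspots were all kept, and the weakest kept hotspot had a heat of 8.13. A hotspot that is absent from CAST/SPRT may be uncut there or may lie below what the caller could list in that library, and these cannot be told apart. The change from rare to near-complete keeping fell within deciles 3 to 8.

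The same deciles were read against Hum/SPRT, whose library gave 9243 SPRT hotspots. To mimic a shorter list, only its 5123 strongest SPRT hotspots, with heats of at least 47.0, were used. This comparison was chosen after seeing the data. The list held partners for 54.4% of the SPRT hotspots of B6/SPRT. By decile of B6/SPRT heat the share was 1.95% in decile 3, 12.4% in decile 4, 47.5% in decile 5, 88.7% in decile 6 and 96.8% in decile 7. CAST/SPRT thus kept more of deciles 1 to 5 and less of deciles 6 and 7 than this list did. The Hum/SPRT list was cut at a chosen heat and the CAST/SPRT list was used as called, so the steepness of the step cannot be compared between them. Of the hotspots, 4528 were in both sets, 673 had a partner in CAST/SPRT only and 499 in the Hum/SPRT list only. The comparisons differ in the partners allowed. In CAST/SPRT a partner could carry any label, and 176 had no allele, whereas the Hum/SPRT list held SPRT hotspots only. With a partner attributed to SPRT, the share kept in CAST/SPRT was 54.3%. Both comparisons use the same B6/SPRT library.

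**Figure D1:**
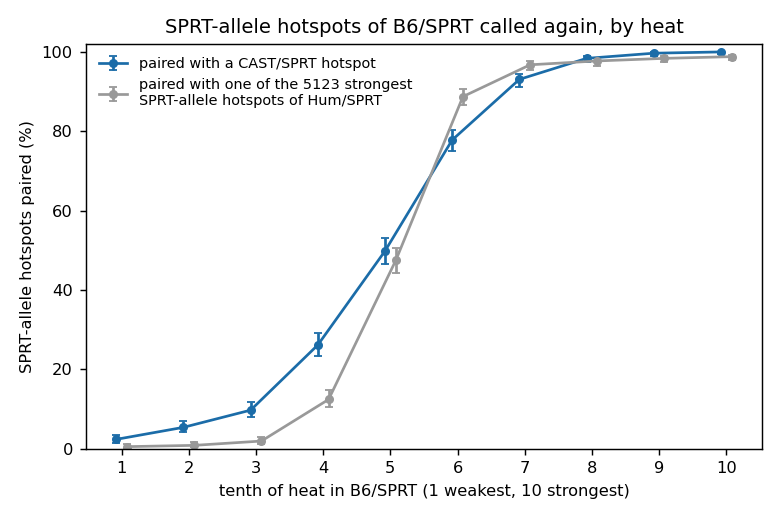
Percentage of the 9247 SPRT-allele hotspots of B6/SPRT that were paired, by decile of their heat in B6/SPRT, for CAST/SPRT (blue) and for the 5123 strongest SPRT hotspots of Hum/SPRT (grey); bars are Wilson 95% intervals. The blue curve passes 49.8% in decile 5 and reaches 100% in decile 10, and it is lower than the grey curve in deciles 6 and 7.

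Kept and not called hotspots also differed in the chromosome that was cut. Among SPRT hotspots with a B6 fraction in B6/SPRT, 69.0% of the 4376 kept ones were cut mainly on the B6 chromosome, 24.4% (interval 23.1 to 25.7%) were matched and 6.67% were cut mainly on the SPRT chromosome. Among the 3080 that were not called, 46.5% were cut mainly on B6, 36.8% (35.1 to 38.5%) were matched and 16.7% were cut mainly on SPRT. The median B6 fraction was 97.2% for kept and 68.0% for not called hotspots. Turned around, 67.8% of hotspots cut mainly on B6 were kept, 48.5% of matched hotspots and 36.2% of those cut mainly on SPRT.

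Heat moves with the B6 fraction. Median heat in B6/SPRT was 135 at SPRT hotspots cut mainly on B6, 88.4 at matched hotspots and 64.2 at those cut mainly on SPRT. The kept share was therefore compared within deciles of heat. In decile 5, hotspots cut mainly on B6 were kept in 58.5% of cases (interval 53.6 to 63.3%) and matched hotspots in 46.1% (39.7 to 52.5%), with median heats of 91.7 and 89.4. In decile 6 the shares were 84.9% (81.3 to 87.9%) and 67.2% (61.0 to 73.0%), with median heats of 119 and 118. The difference was small in decile 7, with 95.5% and 92.1%, and above it nearly all hotspots of both kinds were kept.

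Over deciles 4 to 7 together, 69.6% of the 1725 hotspots cut mainly on B6 were kept (67.4 to 71.7%), 54.97% of the 906 matched hotspots (51.7 to 58.2%) and 54.3% of those cut mainly on SPRT. Median heats in this range were 109.4, 101.9 and 96.6 in the same order, so pooling the deciles left heat unequal between the classes. How far this affects the pooled shares and the autosome counts, for CAST/SPRT or for Hum/SPRT, was not tested. The kept share was higher at hotspots cut mainly on B6 than at matched hotspots on 19 of 19 autosomes. The difference was 2.54 to 44.2 percentage points with a median of 15.1. For the 5123 strongest of Hum/SPRT the shares were 64.1%, 59.3% and 60.1%, and hotspots cut mainly on B6 had the higher share on 14 of 19 autosomes. In decile 5 alone the Hum/SPRT shares were 47.2% and 47.8% for hotspots cut mainly on B6 and matched hotspots, where CAST/SPRT had 58.5% and 46.1%.

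**Figure D2:**
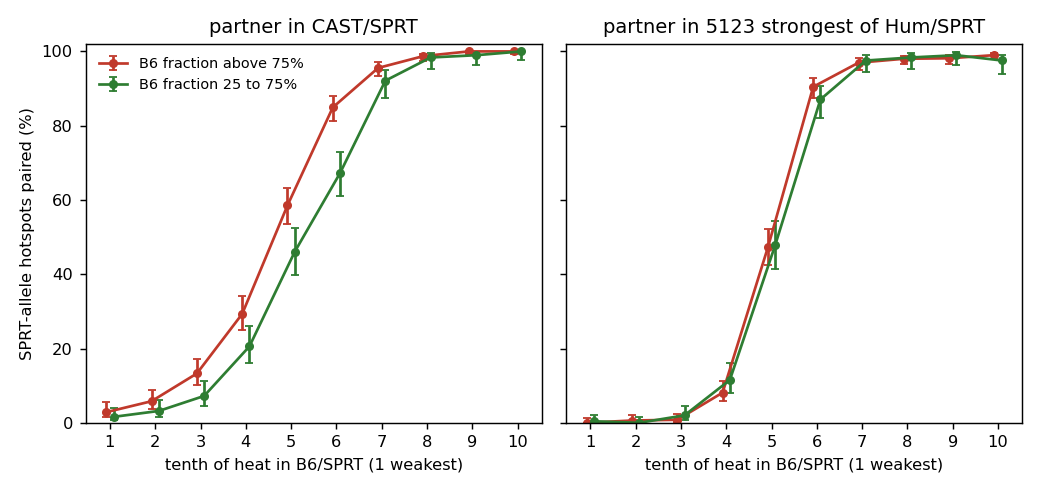
Percentage of SPRT-allele hotspots of B6/SPRT that were paired, by decile of heat, for hotspots cut mainly on the B6 chromosome (red) and matched hotspots (green), with CAST/SPRT on the left and the 5123 strongest SPRT hotspots of Hum/SPRT on the right; bars are Wilson 95% intervals. The curves stand apart in deciles 4 to 6 on the left, with 84.9% against 67.2% in decile 6, and lie close together on the right, with 90.5% against 87.1%.

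H3K4me3 was measured by separate ChIP-seq libraries and was not used for the pairing. Enrichment over input in B6/SPRT had a median of 10.04 at kept SPRT hotspots (quartiles 7.16 and 13.7) and 5.91 at those not called (3.998 and 8.48). Within heat deciles the gap was small: 7.79 against 7.21 in decile 5, 8.42 against 8.06 in decile 6 and 9.75 against 8.41 in decile 7. The median share of H3K4me3 reads from the B6 chromosome was 77.9% at kept and 62.2% at not called hotspots, with a median of 373 and 195 SNP-carrying reads per hotspot. By H3K4me3, 41.2% of kept and 60.8% of not called hotspots were matched, so the mark differed between the sets in the direction of the DMC1 fraction. For each genotype the H3K4me3 columns were taken as pooled over 2 ChIP samples, so they give no spread between mice.

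By their heat in B6/SPRT, the leading kept hotspots lay within Ttc14, Tmem144 and Desi2. The hotspot in Ttc14, on chromosome 3 at 33809696, had a heat of 833 in B6/SPRT and 143 in CAST/SPRT, and it was matched in both, with B6 fractions of 51.5% and 57.9%. The hotspot in Tmem144, on chromosome 3 at 79812956, had heats of 766 and 248, or 0.0419% and 0.0728% of library heat, and 99.5% and 98.6% of its reads came from B6. The hotspot in Desi2, a deSUMOylating enzyme gene, on chromosome 1 at 178250000, had heats of 732 and 182 and was cut mainly on SPRT in both, with B6 fractions of 16.7% and 10.7%. All 3 stayed among the strongest hotspots of CAST/SPRT, at percentile ranks of 99.2 to 100.

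The strongest SPRT hotspots that were not called in CAST/SPRT had heats of 307, 279 and 267 in B6/SPRT. They lay on chromosome 15 at 30527194, where Ctnnd2, which encodes delta-catenin, overlaps Gm41284, on chromosome 14 at 46770333 in Cdkn3, a phosphatase of cyclin-dependent kinases, and on chromosome 16 at 38756509 in B4galt4, a galactosyltransferase. The B6 fraction was 52.5% in Cdkn3 and 36.2% in B4galt4 and was not listed in Ctnnd2. All 3 were called in Hum/SPRT, with heats of 149, 163 and 113. Gene names give location only; exons and introns were not in the gene table used.

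Only 10 SPRT hotspots of CAST/SPRT had no partner in B6/SPRT, and 9 of them were called in Hum/SPRT. The strongest, on chromosome 3 at 37190318 and 1.73 kb from the lncRNA gene Gm12532, had a heat of 69.6 and was not called in Hum/SPRT either. The next, in Dpp10 on chromosome 1 with a heat of 28.5, is the hotspot given above as lying 502 bp from a SPRT hotspot of B6/SPRT. The hotspot in Gle1, an mRNA export factor gene, on chromosome 2 had a heat of 21.3 in CAST/SPRT and 78.3 in Hum/SPRT.

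At the 5201 pairs, heat ran in nearly the same order in both libraries, and for most pairs the share of library heat changed less than 2-fold. SPRT hotspots as a whole held 71.8% of library heat in B6/SPRT and 55.4% in CAST/SPRT. The hotspots not called, which the pairs leave out, held 12.4% of the heat of B6/SPRT. Spearman's rho of heat was 0.903 and Pearson's r of log2 heat was 0.877 across pairs, which are not independent replicates and share the B6 reference and the caller. The median log2 change of share, CAST/SPRT minus B6/SPRT, was -0.19 (quartiles -0.50 and 0.10). Raised at least 2-fold were 33 pairs (0.634%), against 1.79% of pairs of any allele, and lowered at least 2-fold were 243 pairs (4.67%), against 4.83%. That background of 5424 pairs includes these 5201 pairs, so it is not an independent comparison. The median percentile rank fell by 28.1 points between the libraries, beside 5103 hotspots with no allele and a median heat of 19.6 in B6/SPRT and 958 in CAST/SPRT.

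The change varied with heat. In quintiles of heat in B6/SPRT, the median log2 change of share was -0.27, -0.38, -0.31, -0.14 and 0.09 from the weakest to the strongest quintile. A weak hotspot had to be strong enough in CAST/SPRT to be listed at all, so the values of the 2 weakest quintiles are those of the hotspots that passed. The strongest quintile held heats of at least 299 in B6/SPRT.

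Among pairs, matched hotspots lost more of their share than hotspots cut mainly on B6. The median log2 change was -0.11 at the 3018 hotspots cut mainly on B6, -0.35 at the 1066 matched hotspots and -0.36 at the 292 hotspots cut mainly on SPRT. The median for matched hotspots was below that for hotspots cut mainly on B6 in each quintile, for example -0.34 against -0.06 in quintile 4 and -0.04 against 0.15 in quintile 5, where nearly every hotspot was kept. The difference had this sign on 19 of 19 autosomes, between -0.43 and -0.04. In Hum/SPRT the medians over the same pairs were -0.05, -0.06 and -0.03, and the sign was the same on 13 of 19 autosomes. For the share of H3K4me3 enrichment in CAST/SPRT they were 0.23, 0.20 and 0.02, again with that sign on 13 of 19 autosomes. Neither readout had this sign in every quintile. For H3K4me3, matched hotspots had the lower median in quintiles 1 to 4 but the higher in quintile 5, at 0.49 against 0.35. In Hum/SPRT they had the higher median in quintiles 1 (-0.087 against -0.163) and 2 (-0.117 against -0.129) and the lower in quintiles 3 to 5.

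**Figure D3:**
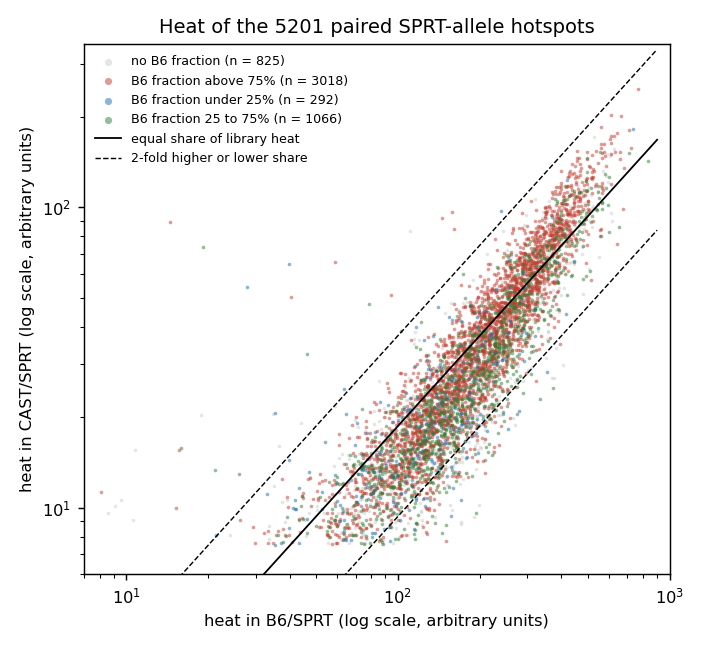
Heat in CAST/SPRT against heat in B6/SPRT for the 5201 paired SPRT-allele hotspots, on log axes in arbitrary units, colored by the B6 fraction in B6/SPRT; the solid line marks an equal share of library heat and the dashed lines a 2-fold higher or lower share. Most points lie between the dashed lines, 33 on or above the upper and 243 on or below the lower, and green points lie lower in the cloud than red points.

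The pairs with the largest rise in percentile rank were weak in B6/SPRT. On chromosome 16 at 84393821, 18.3 kb from the lncRNA gene 4930553E22Rik, heat was 14.5 in B6/SPRT and 89.1 in CAST/SPRT, a 33.0-fold higher share. The B6 fraction was 92.7% and 7.23%. The centers of this pair lay 254 bp apart, and whether they are the same hotspot was not tested. In Upf2, a factor of nonsense-mediated mRNA decay, on chromosome 2 at 5995602, heat was 19.2 and 73.7 and the B6 fraction 52.8% and 2.68%. Neither of these pairs was called in Hum/SPRT. On chromosome 9 at 30928102, 5.65 kb from Adamts15, heat was 27.8 and 54.3 with a B6 fraction of 0 in both. Of the 33 pairs raised at least 2-fold, 14 had a partner with no allele assigned and 11 were over 250 bp apart, against 176 and 214 of all 5201 pairs.

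The largest falls in percentile rank started from ranks of 83.4 to 84.4 in B6/SPRT. In Ptprh, a receptor tyrosine phosphatase gene, on chromosome 7 at 4564508, heat was 191 in B6/SPRT and 9.29 in CAST/SPRT, a share ratio of 0.261. On chromosome 5 at 33492461, 58.4 kb from the homeobox gene Nkx1-1, heat was 194 and 9.56 and the B6 fraction 49.1% and 77.8%. In Gm35814 on chromosome 18 heat was 199 and 10.2. In Hum/SPRT the same 3 hotspots had heats of 164, 100 and 82.6.

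The chromosome cut at a SPRT hotspot differed little between the libraries when each hotspot counted once. At the 4068 pairs with a B6 fraction in both libraries, the median difference, CAST/SPRT minus B6/SPRT, was -0.17 percentage points (quartiles -2.51 and 1.89), and 89.0% of pairs differed by at most 10 points. Of these pairs, 95.4% stayed in their class: 98.4% of those cut mainly on B6, 87.7% of those matched and 87.1% of those cut mainly on SPRT. From the matched class, 85 moved to mainly B6 and 25 to mainly SPRT. The matched share was 21.9% in B6/SPRT and 21.1% in CAST/SPRT, a change of -0.81 percentage points that was negative on 12 of 19 autosomes (range -3.56 to 1.98) and turned positive when matched was widened to 10 to 90%. Weighted by the heat of each library the change was larger, at -3.68 percentage points. Over all SPRT hotspots with a fraction, 29.5% were matched in B6/SPRT (interval 28.5 to 30.6%) and 22.3% in CAST/SPRT (21.1 to 23.6%), beside the matched shares of 24.4% and 36.8% of kept and not called hotspots given above.

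In place of the 4122 B6 hotspots, CAST/SPRT had 3470 CAST hotspots at other sites. Only 18 B6 hotspots (0.437%, interval 0.276 to 0.689%) had a CAST/SPRT hotspot within 500 bp, and each of these was a CAST hotspot, against 29.3% of B6/SPRT hotspots of any allele. This share too is not independent of the allele labels and is not read against that of SPRT hotspots. The median distance from a B6 hotspot to the nearest CAST hotspot was 195 kb, and 4.03% had one within 10 kb. From kept SPRT hotspots the median was 208 kb with 3.23% within 10 kb, and from not called SPRT hotspots 210 kb with 3.26%, values close to those of B6 hotspots. Across 498 autosomal windows of 5 Mb, the summed heat share of B6 hotspots and that of CAST hotspots had Spearman's rho of 0.432, where SPRT hotspots in both libraries had 0.847. Within a library it was 0.435 between B6 and SPRT hotspots of B6/SPRT and 0.304 between CAST and SPRT hotspots of CAST/SPRT, so B6 and CAST hotspots followed each other about as closely as B6 and SPRT hotspots did. The windows share gene content and mappability and are not replicates. Of the windows, 487 held hotspots of both alleles. CAST hotspots were fewer than B6 hotspots on 17 of 19 autosomes.

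The 18 coinciding pairs were mostly weak, with median heats of 19.6 in B6/SPRT and 19.4 in CAST/SPRT. Of the 8 with a B6 fraction in both, 4 agreed to 10 percentage points and 1 was cut mainly on opposite chromosomes. The strongest CAST member, on chromosome 14 at 93257096 in the protocadherin gene Pcdh9, had a heat of 104, beside a B6 hotspot of heat 13.7 at 71 bp. In Ctbp1, a transcriptional corepressor gene on chromosome 5, the heats were 25.7 for B6 and 82.2 for CAST, 259 bp apart, and in Galnt7 on chromosome 8 they were 32.9 and 71.5, 356 bp apart.

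CAST hotspots were stronger relative to SPRT hotspots than B6 hotspots were. Their median heat was 0.909 times that of SPRT hotspots in CAST/SPRT, and for B6 hotspots in B6/SPRT the ratio was 0.419. These ratios come from lists of unlike length, 18522 hotspots in B6/SPRT and 9592 in CAST/SPRT, with the same lowest heat of 7.50. How far list length affects the ratios was not tested. B6 hotspots held 18.3% of the heat of their library and CAST hotspots 35.1%, and the CAST share was the higher on 19 of 19 autosomes, with 31.1 to 40% against 14.9 to 22.3%. Of the 100 strongest hotspots, 80 were SPRT and 15 B6 in B6/SPRT (15%, interval 9.31 to 23.3%), and 53 were SPRT and 41 CAST in CAST/SPRT (41%, 31.9 to 50.8%). Among the 1000 strongest, B6 had 13.1% and CAST 33.7%.

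**Figure D4:**
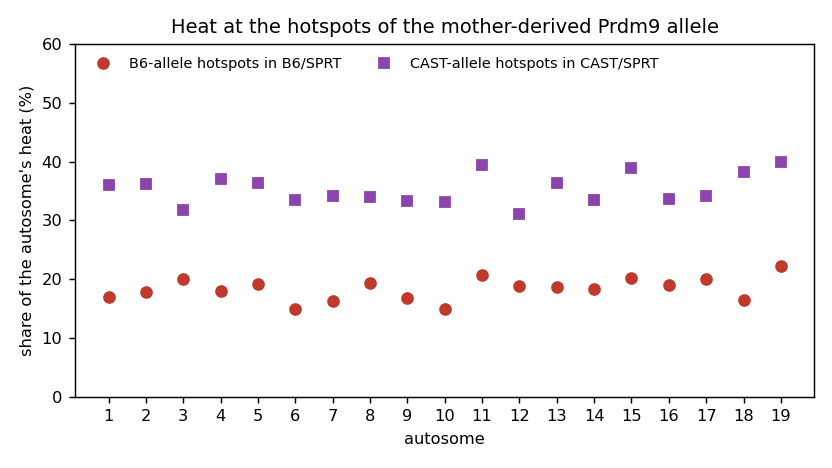
Share of each autosome's DMC1 heat at B6-allele hotspots in B6/SPRT (red circles) and at CAST-allele hotspots in CAST/SPRT (purple squares), in percent, for the 19 autosomes; 1 library per genotype, so points carry no error. The purple squares lie between 31.1 and 40% and the red circles between 14.9 and 22.3%, without overlap.

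The chromosome cut differed between the alleles as well. Of the 2541 B6 hotspots with a fraction, 61.6% (59.6 to 63.4%) were cut mainly on SPRT, 25.5% (23.9 to 27.3%) were matched and 12.9% were cut mainly on B6. Of the 2471 CAST hotspots, 54.3% (52.3 to 56.3%) were matched, 18.5% were cut mainly on SPRT and 27.2% (25.4 to 28.9%) mainly on B6. The B6 matched share was 15.0% when weighted by heat, 15.7% with hotspots without a fraction counted as not matched and 45.3% with matched set at 10 to 90%; under the same settings the CAST share was 59.6%, 38.7% and 70.9%. The median B6 fraction was 12.8% for B6 and 50% for CAST hotspots. On single autosomes the matched share was 19.7 to 38.0% for B6 and 48.5 to 60.9% for CAST, without overlap. Where CAST hotspots were not matched, the B6 chromosome was cut more often than the SPRT chromosome.

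The stronger B6 hotspots were mostly those cut on SPRT. Among CAST hotspots, median heat was highest at matched sites. The median heat of B6 hotspots in B6/SPRT was 63.0 where the SPRT chromosome was cut, 23.9 at matched sites and 20.4 where B6 was cut. For CAST hotspots in CAST/SPRT it was 25.6, 27.7 and 20.9 in the same order. The median heat of all hotspots was 54.5 in B6/SPRT and 26.2 in CAST/SPRT over the same lowest heat of 7.50. The size of the spread is therefore not compared between the alleles. The strongest B6 hotspot, on chromosome 3 at 65655101 and 4.19 kb from Mir8120, had a heat of 729 with 0.183% of reads from B6, and the one in Tasor2 on chromosome 13 had 634 with 1.06%. The hotspot on chromosome 13 at 116403483, 93.8 kb from the LIM-homeobox gene Isl1, had 706 and no fraction. The leading CAST hotspot, in the lncRNA gene Gm46832 on chromosome 3, had a heat of 234 and a B6 fraction of 49.8%. Those in Arhgap15 on chromosome 2 and in Gli3, a transcription factor gene of Hedgehog signaling, on chromosome 13 had 207 and 188 without a fraction.

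**Figure D5:**
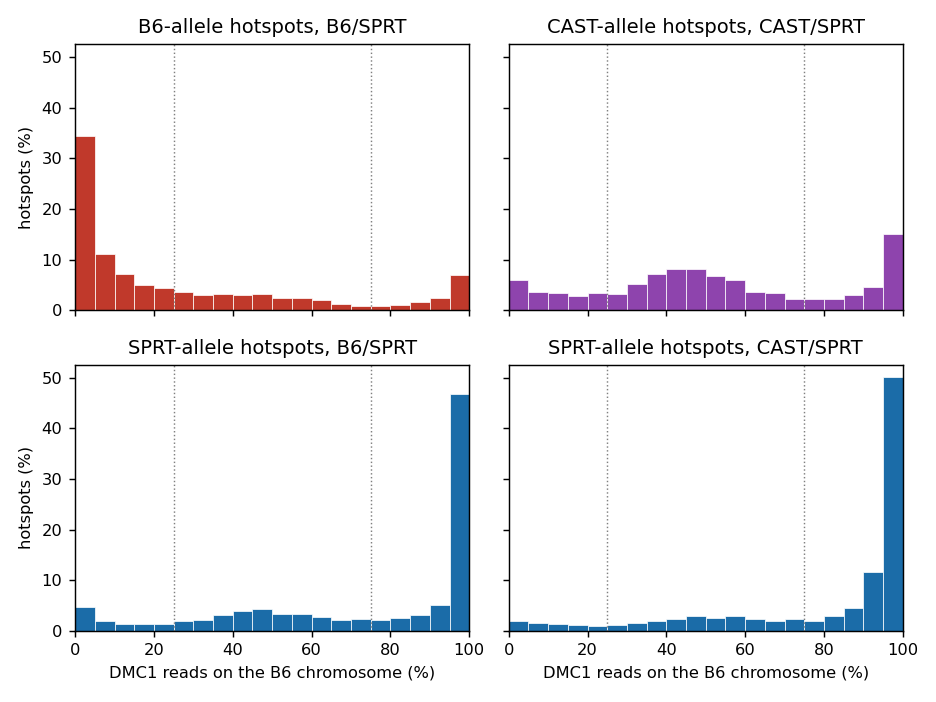
Distribution of the percentage of DMC1 reads from the B6 chromosome over B6-allele hotspots of B6/SPRT, CAST-allele hotspots of CAST/SPRT and SPRT-allele hotspots of both libraries, as percent of hotspots in bins of 5 percentage points; dotted lines at 25 and 75% bound the matched class. B6 hotspots pile up near 0, CAST hotspots have their middle at 50% with a further peak near 100%, and both SPRT panels are dominated by the highest bin.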

How the data were processed

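Per the study's methods, the authors identified single-stranded DMC1 SSDS fragments, called hotspots de novo, used mice with other Prdm9 alleles to attribute each hotspot, and placed reads on a homolog by SPRET/EiJ SNPs. The submitters' processing notes name BWA and mm10. The authors deposited 1 table per genotype, with heat as a signal whose scaling to depth is not stated, the B6 fraction of DMC1 reads as a fraction without its read number, H3K4me3 enrichment over input as a ratio whose formula is not stated, the B6 fraction of H3K4me3 reads, and counts of SNP-carrying reads. The H3K4me3 columns were taken as pooled. A further 18 value columns of the 3 tables read (B6/SPRT, CAST/SPRT and Hum/SPRT) were not used; the STUS tables served only for the total of hotspots.

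Mutually nearest centers within 500 bp were paired on the autosomes in Python (3.11.15), using numpy 2.4.6, pandas 2.3.3 and scipy 1.17.1, and figures were drawn by matplotlib 3.10.9. The pairing and the Wilson intervals were tested on simulated data, and the matched shares were not. Called higher or lower was a 2-fold change of heat share. The depth of the DMC1 libraries is unknown, and no test was made. Named hotspots were the 3 with the largest heat, or the largest change of percentile rank, in each of 8 sets. Genes are from RefSeq (GRCm38.p6, the assembly that mm10 names). No genome of that build was given, so a search for motifs at centers was not made. The members, sets and comparisons were chosen with earlier results of these data known. Alternatives were the pairing distance, the limits of the matched class, weighting by heat, the strongest hotspots only, the partner's allele, chromosome X and hotspots without a fraction.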

Additional observations from a re-analysis of the deposited data

How the results depend on the processing

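No paired analysis was possible because each genotype had 1 DMC1 library. The 12 values that answer the comparisons were recomputed under 72 alternatives in all: 38 stayed within the limit set for that value, 33 moved past it and 1 reversed. The limit was the Wilson interval for a share of hotspots, which is narrower than the spread over autosomes for most of them, and 1 SD over the autosomes for the heat share, the ratio, the correlation and the change. Counting any hotspot in range changed none of the 9 values it was applied to. In each alternative the matched share was lower for kept than for not called hotspots, and lower for B6 than for CAST hotspots. Depth of the DMC1 reads is unknown, which limits the reading of every hotspot that was not called.

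Pairing within 250 bp gave a kept share of 53.9%, 80.4% of SPRT heat, partners for 95.7% of the SPRT hotspots of CAST/SPRT, and 0.218% of B6 and 0.259% of CAST hotspots in range; within 1000 bp the partners rose to 99.9% and the CAST hotspots in range to 0.951%. With only as many of the strongest B6/SPRT hotspots as CAST/SPRT has, the kept share was 72.0%, its heat 87.3%, the ratio of median heat 2.59 against 3.65, the partners 98.3%, and the hotspots in range 0.266% of B6 and 0.144% of CAST. A partner attributed to SPRT was found for 54.3%, with 79.95% of heat. Chromosome X brought the matched share of kept hotspots to 22.9%. Males carry a single X chromosome, here from the B6 mother, so this move follows from the cross and is no check of the matched share. With matched set at 0.1 to 0.9, the matched share was 35.2% of kept, 50.2% of not called, 45.3% of B6 and 70.9% of CAST hotspots, and the change at pairs reversed to 0.762 percentage points; at 0.4 to 0.6 the shares were 13.3%, 17.99%, 11.4% and 29.7%. Weighting by heat gave 15.0% for B6 and 59.6% for CAST hotspots, and a change at pairs of -3.68 percentage points. Counting hotspots without a fraction as not matched gave 20.5%, 28.0%, 15.7% and 38.7%. Against the strongest SPRT hotspots of Hum/SPRT, chosen after seeing the data, 54.4% were paired and 34.5% of the unpaired were matched. The cause of the other moves was not tested.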
